A study of Mus musculus with 6 samples.

Results

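The metallothionein and zinc handling genes described here were 6 mouse genes, Mt1, Mt2, Mt3, Slc30a1, Mtf1 and Slc39a14, taken by name from a table of 56748 genes. All 6 were found by their Ensembl identifiers and all 6 passed the filter on low values. They were measured by sequencing of polyadenylated RNA from the brains of mice implanted with MCF10DCIS cells, with 3 libraries at day 3 and 3 at day 28 after implantation. MCF10DCIS is a human line used to model ductal carcinoma in situ, and here its cells carried the vesicle protein CD63 joined to the luciferase NanoLuc. Every mouse of both groups had been implanted. The labels give neither strain nor age, and no brain of an unimplanted mouse was used here, so time since implantation and age cannot be told apart. Whether each library is a different mouse is not stated in the labels. Library totals ran from 11958137 to 16059196 reads. The genes were chosen with the difference between day 3 and day 28 already known, so their levels are given as a description and without a test.

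Metallothioneins are small, cysteine-rich proteins that bind zinc and copper through thiol groups. In the brain Mt1 and Mt2 are made mainly by astrocytes, while Mt3 is the brain-enriched form and is also found in neurons. Free zinc activates the transcription factor MTF-1, the product of Mtf1, which binds metal response elements in the promoters of Mt1, Mt2 and Slc30a1. Glucocorticoids, oxidative stress and cytokines also induce Mt1 and Mt2. Slc30a1 encodes ZnT1, which exports zinc across the plasma membrane, and Slc39a14 encodes ZIP14, which imports zinc, iron and manganese and is induced by interleukin 6.

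The promoters of Mt1, Mt2, Mt3 and Slc30a1 are shown because Mt1 and Mt2 lay lower at day 28, Slc30a1 lay higher and the groups of Mt3 overlapped. Each is the first 280 bases of a RefSeq window that runs from 250 bases before an annotated start to 50 after it, on build GRCm38.p6. Windows were found for 5 of the 6 genes. Capitals mark the core of the metal response element, TGCACNC or TGCGCNC, searched on both strands.
Mt1 (chr8:94178839-94179118, plus strand): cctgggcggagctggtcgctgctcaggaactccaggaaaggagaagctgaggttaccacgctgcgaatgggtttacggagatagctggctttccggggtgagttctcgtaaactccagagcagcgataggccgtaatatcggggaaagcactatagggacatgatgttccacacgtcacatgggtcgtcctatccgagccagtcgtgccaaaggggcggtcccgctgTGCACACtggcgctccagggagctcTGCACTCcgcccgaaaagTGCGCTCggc
Mt2 (chr8:94172368-94172647, plus strand): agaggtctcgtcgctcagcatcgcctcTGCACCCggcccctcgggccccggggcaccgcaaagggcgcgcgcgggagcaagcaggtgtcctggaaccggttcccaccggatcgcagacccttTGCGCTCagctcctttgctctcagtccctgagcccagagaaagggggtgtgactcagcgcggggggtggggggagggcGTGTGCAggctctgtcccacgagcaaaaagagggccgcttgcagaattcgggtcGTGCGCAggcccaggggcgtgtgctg
Mt3 (chr8:94152357-94152636, plus strand): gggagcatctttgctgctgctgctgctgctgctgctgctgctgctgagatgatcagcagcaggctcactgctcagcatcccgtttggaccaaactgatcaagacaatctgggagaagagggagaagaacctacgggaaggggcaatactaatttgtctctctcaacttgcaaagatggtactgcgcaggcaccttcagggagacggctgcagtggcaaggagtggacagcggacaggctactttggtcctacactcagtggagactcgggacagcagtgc
Slc30a1 (chr1:191906531-191906810, plus strand): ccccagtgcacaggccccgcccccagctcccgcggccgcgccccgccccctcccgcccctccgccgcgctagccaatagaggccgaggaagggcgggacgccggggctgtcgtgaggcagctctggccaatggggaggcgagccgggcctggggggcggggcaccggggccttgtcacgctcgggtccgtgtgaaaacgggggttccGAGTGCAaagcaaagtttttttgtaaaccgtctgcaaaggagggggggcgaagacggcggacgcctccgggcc

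The Mt1 window held 3 metal response element cores, all on the plus strand, the first beginning 23 bases before the start. The Mt2 window held 4, of which 2 were on each strand. Of 32851 windows of the same length, 1.97% held at least 3 cores and 0.517% at least 4. Slc30a1 had 2 cores, both on the minus strand and one of them past the printed stretch, and 7.11% of windows had at least 2. Mt3 had 1 core, which begins in the last printed bases and runs past them, and 25.7% of windows had at least 1. Mtf1 had none. The glucocorticoid response element, searched as AGAACA and TGTTCT with 3 bases of any kind between them, was not in any of the 5 windows and was in 0.00913% of all windows. At that share, an absence from 5 windows says little, and bases beyond the windows were not searched. The antioxidant response element core TGACNNNGC was found in 12.4% of windows, among them those of Mt2 and Slc30a1, each with 1 match. No match of one motif overlapped a match of another in these windows. For each of these 5 genes, GENCODE M21 also lists coding transcripts with starts that the windows do not reach. They lie downstream of the start used, by 122 and 152 bases for Mt1, 242 for Mt2 and 139 for Mt3. For Slc30a1 the distance is 475 bases and for Mtf1 129, with a further Mtf1 start 445 bases upstream. The counts of cores hold only for the starts used. A match is a description of letters and does not show binding.

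Mt1 and Mt2, the inducible metallothioneins, were higher in every day 3 library than in any day 28 library. Mt1 stood at 2897, 4259 and 3039 normalized counts in day 3 replicates 1 to 3 and at 1525, 1652 and 1442 in day 28 replicates 1 to 3. A normalized count is the number of reads divided by a size factor of the library. The group means were 3398 ± 749 and 1540 ± 106 (SD, n = 3 each), a log2 difference of -1.12, day 28 minus day 3. Mt2 stood at 1581, 2737 and 1432 at day 3 and at 760, 670 and 572 at day 28. Its means were 1917 ± 714 and 667 ± 93.6 (SD, n = 3 each), a log2 difference of -1.47. For both genes day 3 replicate 2 was the highest library, and the other 2 day 3 libraries lay close together. The nearest libraries of the groups were apart by 0.81 on the log2 scale for Mt1 and by 0.91 for Mt2. The largest counting error of a library was 0.037 on that scale for Mt1 and 0.059 for Mt2. Among 16162 tested genes Mt2 had the 331st lowest difference and Mt1 the 542nd.

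Mt3, the brain-enriched metallothionein, had overlapping groups. It stood at 1445, 1430 and 1716 normalized counts at day 3 and at 1397, 1546 and 1463 at day 28, a log2 difference of -0.06. Its highest and its lowest library were day 3 replicate 3 and day 28 replicate 1. Mt4, the metallothionein of stratified epithelium, had 0 reads in each library, which allows up to 3 reads in each, for counting error only.

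**Figure D1:**
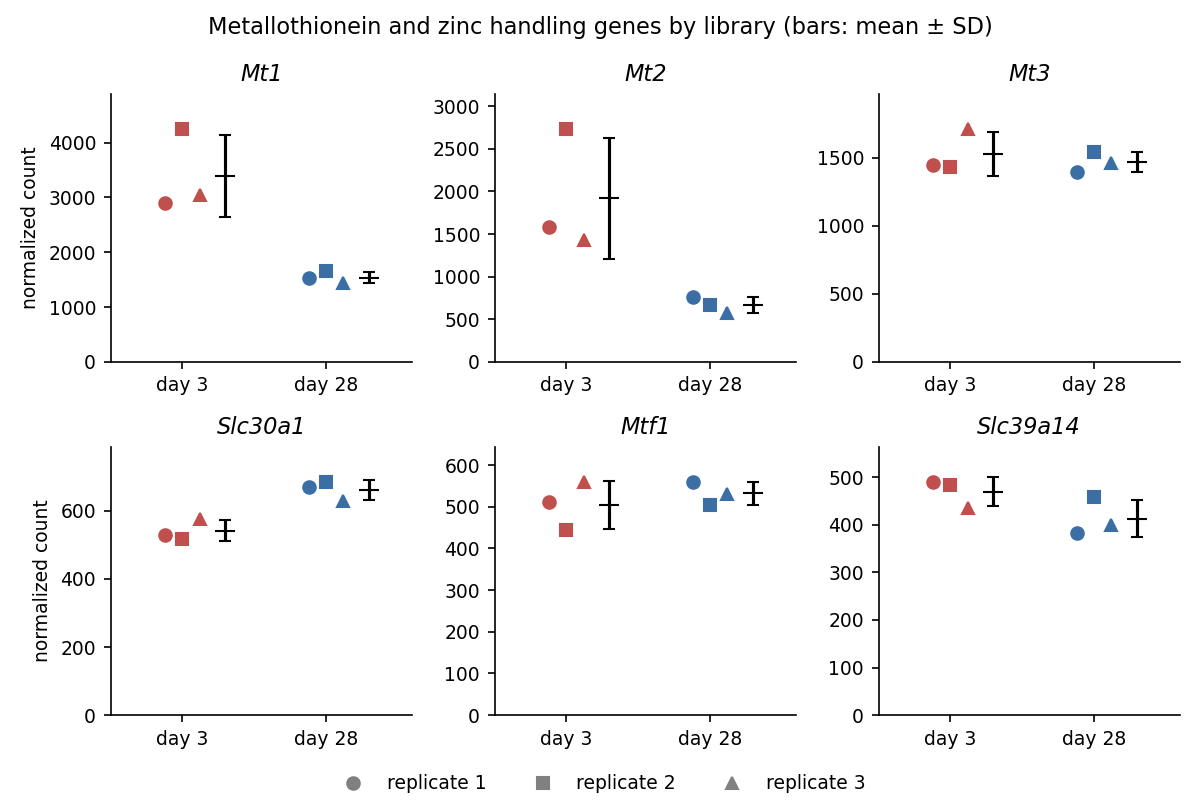
Normalized counts (vertical axes, from 0) of the 6 genes in each library at day 3 (red) and day 28 (blue). Marker shapes give the replicate number and bars the mean ± SD of 3 libraries; for Mt1, Mt2 and Slc30a1 the groups do not overlap, while for Mt3, Mtf1 and Slc39a14 they do.

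The ratio of 2 genes within a library does not depend on how libraries were scaled. Mt1 had 2.00, 2.98 and 1.77 reads per read of Mt3 at day 3 and 1.09, 1.07 and 0.985 at day 28, so the groups did not overlap. Mt2 had 1.09, 1.91 and 0.835 reads per Mt3 read at day 3 and 0.544, 0.433 and 0.391 at day 28. These groups did not overlap either. For each Mt1 read, day 3 libraries held 0.546, 0.643 and 0.471 reads of Mt2, and day 28 libraries 0.498, 0.405 and 0.397. Here the groups did overlap, since day 28 replicate 1 lay above day 3 replicate 3.

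**Figure D2:**
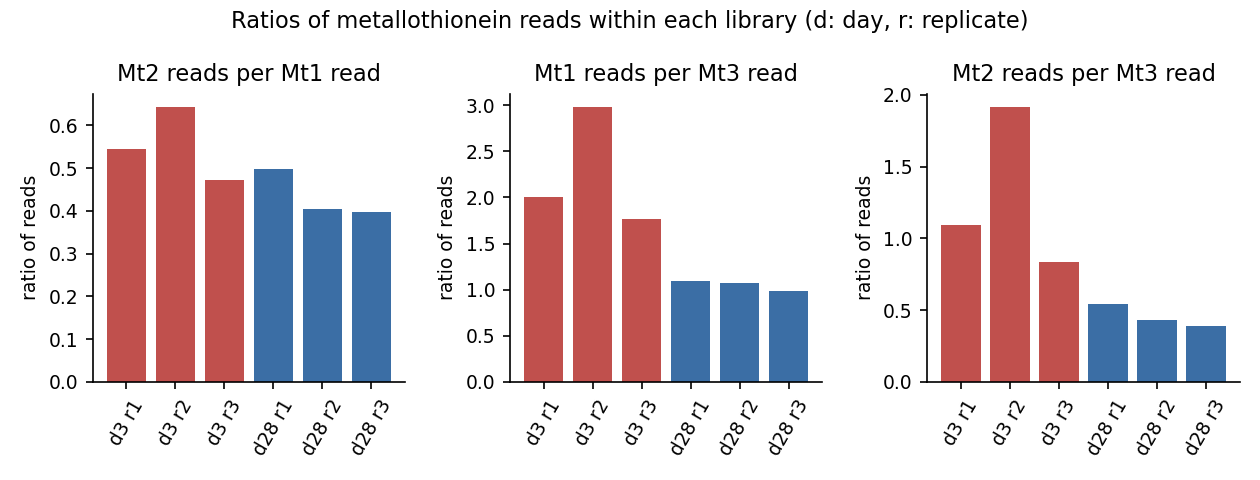
Ratios of reads (vertical axes, from 0) within each library, with day 3 in red and day 28 in blue. The ratios of Mt1 and of Mt2 to Mt3 are higher in every day 3 library than in any at day 28, and that of Mt2 to Mt1 overlaps between the days.

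Levels of different genes were compared per kilobase of the GENCODE transcript numbered 201. At day 3 Mt1 had 6190 ± 1364 normalized counts per kilobase, Mt2 3751 ± 1398 and Mt3 2855 ± 300 (SD, n = 3 each). At day 28 Mt1 had 2804 ± 193, Mt3 2740 ± 139 and Mt2 1306 ± 183. Mt1 and Mt3 differed by less than their SD at day 28, and Mt2 and Mt3 by less than the SD of Mt2 at day 3. The order depends on the gene model: per kilobase of all exons joined, the day 3 mean was 3260 for Mt2 and 2727 for Mt1. Slc39a14, Slc30a1 and Mtf1 lay far lower at day 3, at 224 ± 14.4, 103 ± 6.01 and 66.1 ± 7.53 normalized counts per kilobase of transcript 201, and kept this order at day 28, at 197, 126 and 69.7. Slc39a14 has several transcripts, and with all exons joined its level was below both, at 44.5 per kilobase at day 3.

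Slc30a1, the plasma membrane zinc exporter, was higher at day 28, against the direction of Mt1 and Mt2. It stood at 529, 517 and 577 normalized counts at day 3 and at 669, 685 and 627 at day 28, with means of 541 ± 31.5 and 660 ± 29.6 (SD, n = 3 each). The log2 difference was 0.29. The groups did not overlap, and the nearest libraries, both replicate 3, were apart by 0.12 on the log2 scale, where counting alone gave a single library an error of up to 0.066. For each Mt1 read, day 3 libraries held 0.183, 0.121 and 0.190 reads of Slc30a1, and day 28 libraries 0.438, 0.415 and 0.435. The day 28 ratios were all higher. Among all tested genes 17.1% had a difference at least as high as that of Slc30a1.

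Mtf1 and Slc39a14 had overlapping groups. Mtf1, the zinc-sensing transcription factor, stood at 511, 444 and 559 normalized counts at day 3 and at 560, 505 and 531 at day 28, a log2 difference of 0.08. Slc39a14, the zinc, iron and manganese importer, stood at 490, 483 and 434 at day 3 and at 382, 457 and 399 at day 28. Its log2 difference was -0.19, and day 28 replicate 2 lay above day 3 replicate 3. The lowest count of reads behind any value of the 6 genes was 357, for Slc39a14 in day 3 replicate 3.

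In all, the groups did not overlap for 3 of the 6 genes, against 18.9% of all tested genes. Nothing can be read from that share, since the genes were picked on this difference. Their median log2 difference was -0.12 and that of all tested genes -0.01. In bulk tissue, fewer cells of a type and less RNA per cell cannot be told apart.

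The reads of the metallothioneins could be told apart by sequence. Of 500 different 50-base words in transcript 201 of Mt1, 0 occurred in a transcript of another gene in GENCODE M21, and the same held for 462 words of Mt2 and 487 of Mt3. With 31-base words, 3 of 481 in Mt2 also occurred in Pip5k1a and 0 of 519 in Mt1 occurred elsewhere. Unannotated copies were not searched. Antisense genes overlapped Mt2 and Slc30a1 in that annotation. Gm45774, opposite Mt2, had 0 to 6 reads in a library, and 1700034H15Rik, opposite Slc30a1, had 21 to 71. In total 1700034H15Rik had 109 reads at day 3 and 169 at day 28, the same direction as Slc30a1. Mtf1 overlapped the coding gene 1110065P20Rik, which had 322 to 393 reads. Libraries were stranded per the labels' protocols, but whether strand was used in counting is not given in the sources used here, so the values of Slc30a1 and Mtf1 are uncertain to that extent.

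The other zinc transporters were measured as lists. Of 9 other exporters of the Slc30a family, 7 were tested, and of 13 other importers of the Slc39a family, 11. Slc30a2, Slc30a8, Slc39a4 and Slc39a5 were too low, with at most 15, 1, 32 and 6 reads in a library. None of the 18 passed limma's test at an adjusted p under 0.05, and 2 had an unadjusted p under 0.05. Among all 16162 genes, 31 passed (0.192%), with 0.0681% higher and 0.124% lower at day 28, and 13.4% had an unadjusted p under 0.05. All 18 differences lay within 0.5 of 0 on the log2 scale, as did 81.0% of all tested genes, and 9 were positive and 9 negative.

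Slc39a10 and Slc39a12 were the 2 with a small unadjusted p. Slc39a10, an importer that MTF-1 is reported to repress, had 2224 ± 160 normalized counts at day 3 and 2724 ± 135 at day 28 (SD, n = 3 each). Its log2 difference was 0.29, equal to that of Slc30a1 to 2 decimals, with no overlap and a limma adjusted p = 0.208. Slc39a12, an importer of the brain, had 775 ± 85.3 and 612 ± 13.7, a log2 difference of -0.34 (limma adjusted p = 0.242). Slc39a3 was the third importer whose groups did not overlap, with a log2 difference of 0.09. No overlap was thus seen for 3 of the 11 tested importers and 0 of the 7 tested exporters. Together that is 3 of 18, against 18.9% of all tested genes, which does not set them apart. Slc30a3, which loads zinc into synaptic vesicles, stood at 753 ± 215 and 801 ± 54.8, a log2 difference of 0.12 (limma adjusted p = 0.81). The other extremes among exporters were Slc30a10, a manganese exporter (log2 difference 0.14), Slc30a6 (-0.18) and Slc30a9 (-0.03). Those among importers were Slc39a2 (0.18) and Slc39a13 (-0.21). Slc39a8, the closest relative of Slc39a14, ran from 23 reads in day 3 replicate 3 to 163 in day 3 replicate 1.

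**Figure D3:**
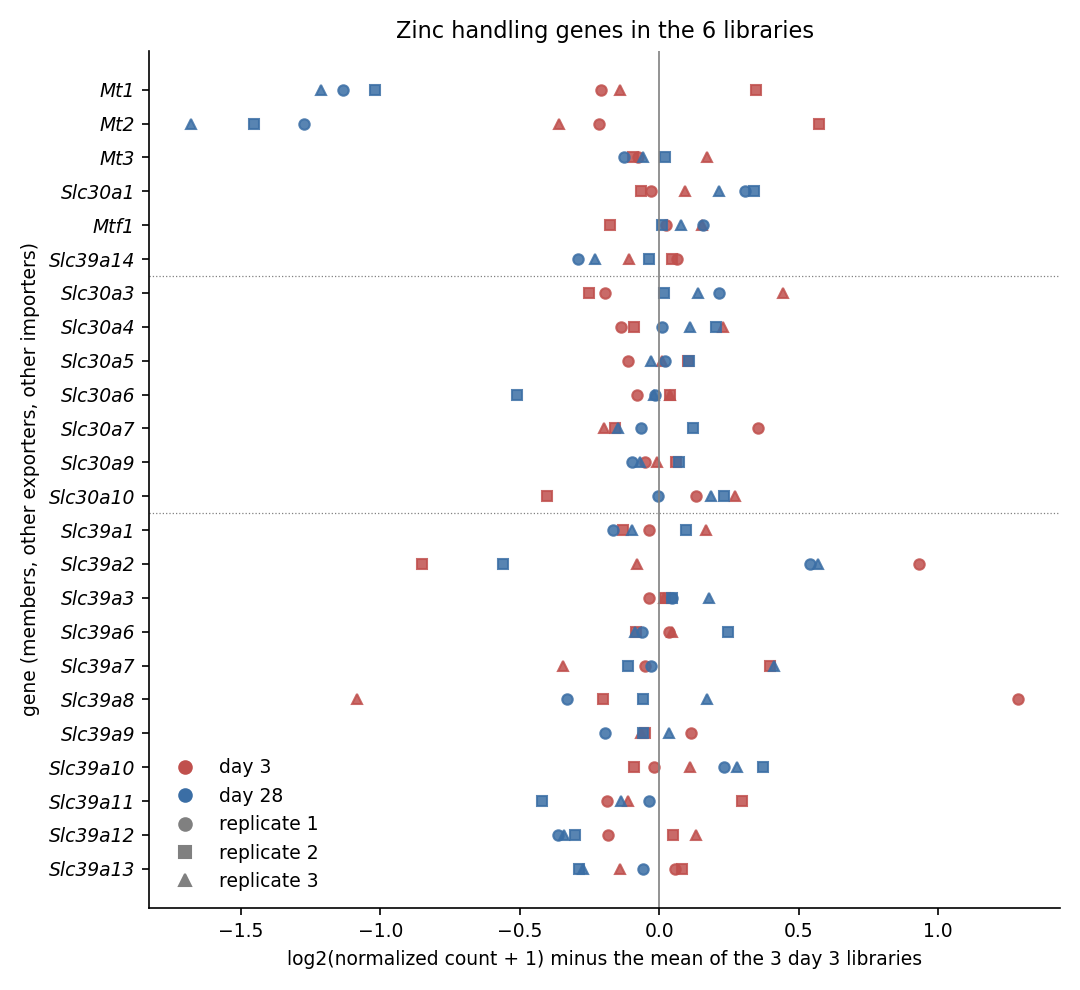
Each point is 1 library, as its log2(normalized count + 1) minus the mean of the 3 day 3 libraries (horizontal axis), for the 6 genes and the 18 tested other zinc exporters and importers (rows). Red is day 3, blue is day 28 and shapes give the replicate; only Mt1 and Mt2 have day 28 libraries more than 0.6 below 0.

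Further metal lists held 0 genes past the threshold, as against 0.192% of all tested genes. They covered reported MTF-1 targets, copper handling, iron handling and targets of NRF2, the regulator of the oxidative stress response. With the zinc transporters they made 57 tested genes. With limma, 0 of the 57 passed, which at a share of 0.192% does not set these lists apart from all tested genes. Of the 57, 10 (17.5%) had an unadjusted p under 0.05, against 13.4% of all tested genes. These were 2 higher and 8 lower at day 28. With voom, also from limma, 0 of the 57 and 0 of all 16162 tested genes passed, and 10 of the 57 had an unadjusted p under 0.05. The median log2 difference of the 57 was -0.09. Among the 7 MTF-1 targets the median was -0.04, but the list also holds Slc39a10, which MTF-1 is reported to repress. Of the 7, 3 (42.9%) had an unadjusted limma p under 0.05, 1 higher and 2 lower at day 28. The groups did not overlap for 3 of the 7, against 18.9% of all tested genes. Ndrg1, a stress-responsive gene, had a log2 difference of -0.41 (limma adjusted p = 0.134). The extremes among the targets were Pgf, a growth factor (log2 difference -0.66), and Slc40a1, the iron exporter ferroportin (0.37).

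The lists for copper, iron and oxidative stress had medians of -0.05, -0.32 and -0.13. Reads of Cp, the copper-carrying ferroxidase ceruloplasmin, numbered 471, 1164 and 197 in the day 3 libraries and 229, 189 and 199 in those of day 28 (log2 difference -1.36, limma adjusted p = 0.266). Like Mt1 and Mt2 it was highest in day 3 replicate 2. Atox1, a copper chaperone, had a log2 difference of -0.40, Sco1 of 0.19 and Sco2 of 0.33, and none of these passed. Fth1, the ferritin heavy chain, stood at 28098 ± 311 and 22216 ± 1723 normalized counts (log2 difference -0.34, limma adjusted p = 0.172). Trf, transferrin, had 16992 reads in day 3 replicate 2 and at most 5545 elsewhere. Hamp, hepcidin, had 316 reads there and at most 13 elsewhere. Slc40a1 and Slc25a37, a mitochondrial iron importer, had the highest differences of the iron list (0.37 and 0.26). Of the NRF2 targets, Slc7a11, the cystine importer, had the highest difference (0.67, limma adjusted p = 0.19) and Osgin1 the lowest (-1.56, limma adjusted p = 0.513), with Hmox1, haem oxygenase, at -0.80 and Nqo1 at 0.55.

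Other inducers of metallothioneins were given by lists written with earlier results of these data known, so they are no independent evidence. Of 14 glucocorticoid-responsive genes, 5 fell with limma (Plin4, Hif3a, Fkbp5, Zbtb16 and Tsc22d3) and 0 rose, against 0.124% and 0.0681% of all tested genes, while Per1 and Dusp1 had positive differences of 0.34 and 0.91. With voom 0 of all tested genes passed. Of 10 tested genes of the interleukin 6 and STAT3 pathway 0 passed with limma, 5 had an unadjusted p under 0.05 (13.4% of all tested genes did), and 10 had negative differences, from -3.92 for Lcn2 (limma adjusted p = 0.0548) and -1.11 for Vim to -0.26 for Stat3 and -0.17 for Il6st. Of all 16162 tested genes, 8308 had a negative difference.

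Likeness to each of the 6 genes was taken as the root mean square difference of log2 values over the 6 libraries, each gene centred on its own mean, and is a description with no test. The 5 genes most like Mt1 were Rfc4 (0.09), Sdc4 (0.14), Cyp4v3 (0.14), Slc46a3 (0.15) and Tsc22d3 (0.16). Sdc4 encodes the proteoglycan syndecan 4 and Tsc22d3 a leucine zipper protein that glucocorticoids induce. Rfc4 is low, between 3.75 and 5.36 on the log2 scale. Mt2 itself lay 0.24 from Mt1, and the genes nearest to Mt2 were Lsr (0.16), Tal1 (0.22) and Alas2 (0.22), the last of which makes haem in red blood cells. Mt3 lay 0.58 from Mt1, farther than Slc39a14 (0.50), and was nearer to Mtf1 (0.12). Atg9a, Bcap29 and Frmpd3 were most like Mt3 (0.02 each). Pcdh1 and Serinc5 were among those most like Slc30a1 (0.03 each). Otulinl (0.02), 4931428F04Rik (0.03) and Mark3 (0.03) were most like Mtf1, and Fem1c (0.01), Wscd1 (0.02) and Prkrip1 (0.03) most like Slc39a14.

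Markers of other cells were set beside Mt1 and Mt2. The 6 neuron markers summed to 71570 to 76814 normalized counts at day 3 and 71823 to 77345 at day 28, with none at 0. Single neuron markers went both ways, with 4 lower and 2 higher in mean log2 value at day 28. The groups did not overlap for 3 of these 6, against 18.9% of all tested genes. Sums of the 10 astrocyte markers were 54458 to 58674 at day 3 and 59165 to 61970 at day 28, with Slc1a2, the main glutamate transporter, the highest of them. Yet 8 of the 10 had a lower mean log2 value at day 28, among them Gfap (-0.97) and Gjb6 (-0.78), and the mean log2 of the 10 ran from 11.37 to 11.50 at day 3 and from 11.09 to 11.17 at day 28. Relative to that mean, Mt1 differed by -0.80 and Mt2 by -1.15 between the days, and the groups of both still did not overlap. On that scale Slc39a14 differed by 0.14 and Mt3 by 0.27, so their sign turned, and Slc30a1 differed by 0.61 and Mtf1 by 0.40. The groups of Slc30a1 and Mtf1 did not overlap on that scale, while those of Mt3 and Slc39a14 did. The share of all tested genes without overlap on that scale was not taken. Every gene's difference moves by the same amount on it, so nothing can be read from these separations. The scale rests on the mean log2 of the markers, which was lower at day 28. Their sum was higher, but Slc1a2 weighs most in it and was itself higher at day 28 (log2 difference 0.37). Differences relative to the sum were not taken, so the turned signs hold for that mean only.

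Day 3 replicate 2 stood apart in liver transcripts. The 11 hepatocyte markers summed to 109367 normalized counts there, against 47.6 and 957 in day 3 replicates 1 and 3 and 1057 to 2019 at day 28. Apoa2 and Cps1 were the markers at 0 in a library. Alb, the liver-made albumin, had 65795 reads there and 23 in day 3 replicate 1. Without day 3 replicate 2 the log2 difference was -0.95 for Mt1 and -1.18 for Mt2. The part of liver RNA in the levels of Mt1 and Mt2 was not tested. Cerebellar granule cell markers, 5 in number, summed to 15145 and 14202 in day 3 replicates 1 and 2, against 700 in replicate 3 and 402 to 2189 at day 28, with Gabra6 and Fat2 at 0 in some libraries. Day 3 replicate 3 alone, set against day 28, gave -0.98 for Mt1, -1.11 for Mt2 and 0.19 for Slc30a1.

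Summed markers of 2 further cell types did not overlap between the days. The 6 oligodendrocyte markers summed to 107671 to 128284 normalized counts at day 3 and 73032 to 90644 at day 28, and the 7 fibroblast markers to 607 to 923 and 276 to 468, with no marker at 0. Each of the 6 oligodendrocyte and each of the 7 fibroblast markers had a lower mean log2 value at day 28, as Mt1 and Mt2 did. The groups did not overlap for 6 oligodendrocyte and 2 fibroblast markers, against 18.9% of all tested genes. Dcn, the matrix proteoglycan decorin, was the only marker that passed (log2 difference -1.81, limma adjusted p = 0.0345). Sums of 7 endothelial markers ran from 2404 to 3890 and from 2686 to 2828, those of 6 microglia markers from 3440 to 5102 and from 3761 to 4257, and those of 8 choroid plexus markers from 6919 to 14932 and from 8034 to 11829. The part of these cell types in the metallothionein levels was not tested.

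**Figure D4:**
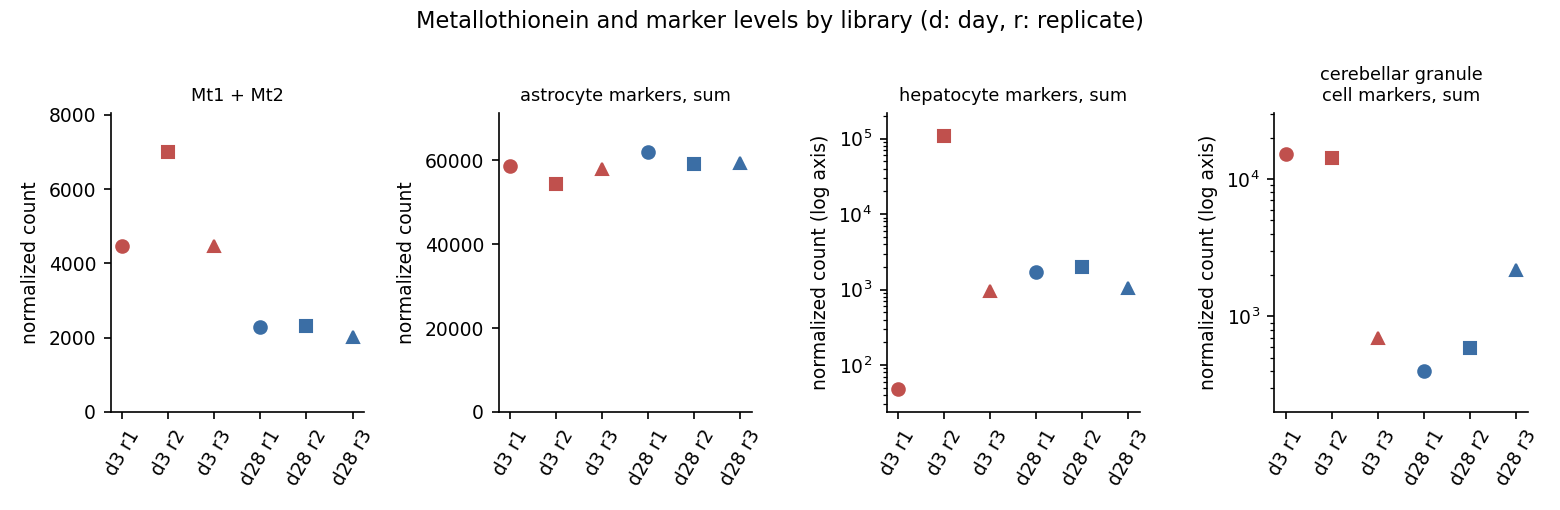
Normalized counts (vertical axes, linear in the first and second panels and logarithmic in the others) of Mt1 plus Mt2 and of the summed astrocyte, hepatocyte and cerebellar granule cell markers in each library. Day 3 replicate 2 has the highest hepatocyte sum, 109367, and the highest Mt1 plus Mt2, 6996, while Mt1 plus Mt2 is also higher in day 3 replicates 1 and 3 (4478 and 4471) than at day 28 (2014 to 2322).

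**Figure D5:**
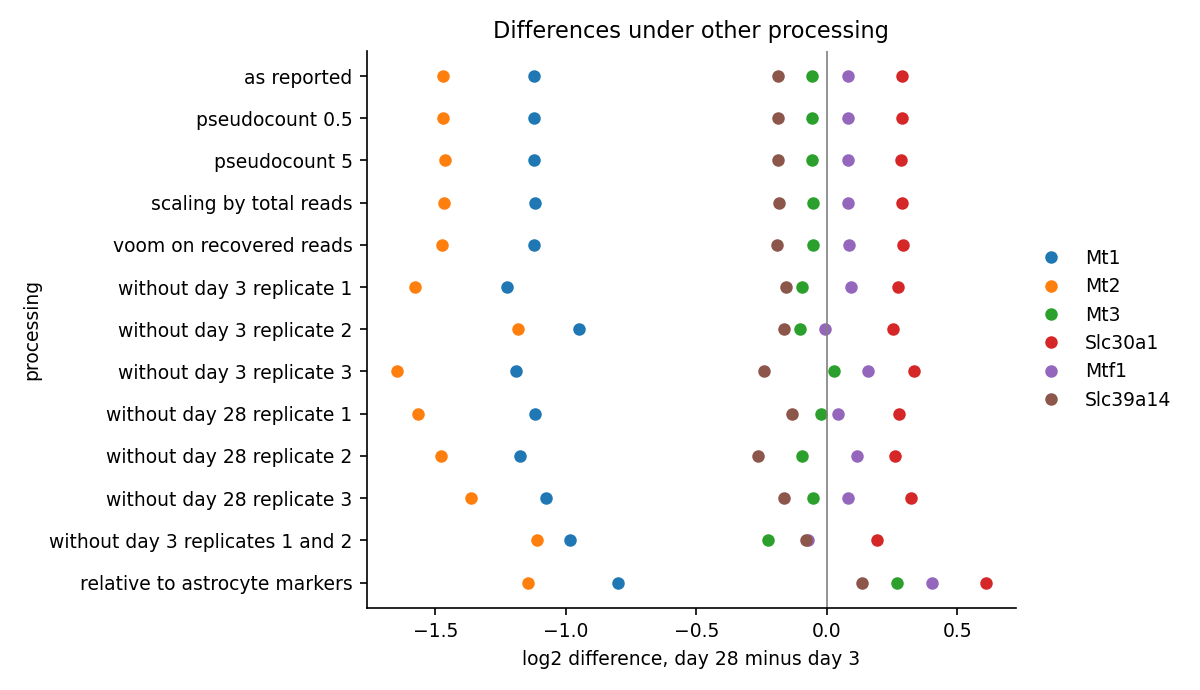
Log2 difference, day 28 minus day 3 (horizontal axis), of the 6 genes as reported and under other processing or with libraries left out (rows). Mt1 stays between -1.23 and -0.80 and Mt2 between -1.65 and -1.11, Slc30a1 stays above 0, and Mt3, Mtf1 and Slc39a14 lie on both sides of 0.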

How the data were processed

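Polyadenylated brain RNA was sequenced in 3 libraries at day 3 and 3 at day 28. The values the authors deposited were log2(x + 1). After reversing this, 100% of values were a whole number times one constant of their library (tolerance 0.001 reads), so x is a read count over the library's size factor. The genome build was GRCm39 per the submitters' processing notes. Aligner, counter, annotation and scaling tool are not given in the sources used here. Each size factor did equal a median-of-ratios factor taken from the recovered reads, such as 1.09177 for both in day 3 replicate 1. That factor is the median over genes of a library's reads relative to the gene's geometric mean over the libraries. Recovered totals were 11958137 to 16059196 reads. p-values measure the spread between these libraries, which may be technical.

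Symbols came from GENCODE M21, which named 15978 of the 16162 genes tested. That release and the RefSeq promoters are on GRCm38, so the coordinates given are of that build and not of the counting. Testing was limited to genes whose normalized counts averaged 10 or more, with limma 3.58.1 in R 4.3.3 (group as the only term, intensity trend, two-sided, Benjamini-Hochberg at 0.05). Differences are on the log2(value + 1) scale. Tests were checked on simulated data whose libraries differed within a group only by noise drawn gene by gene. That check does not cover liver or cerebellar differences between libraries. Lists and members were chosen with earlier results of these data known. Named genes were the 6 members, all list genes past the threshold, the 2 highest and 2 lowest of each list, and the nearest genes by likeness (5 for Mt1, 3 for each other, of which 1 is not reported here); Gfap and Alb were named as marker values, and Fth1, Slc39a3, Slc39a8, Gjb6 and Slc1a2 after their values were seen. Libraries of a group differed beyond sampling noise (lowest ratio of chi-square to its degrees of freedom 8.93) and were each kept as a sample. Alternatives covered pseudocount, filter, scaling, variance model, voom, a replicate block and leaving out libraries. Figures used matplotlib 3.10.9.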

Additional observations from a re-analysis of the deposited data

How the results depend on the processing

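Leaving out each library in turn, the log2 difference of Mt1 ran from -1.23 to -0.95, of Mt2 from -1.65 to -1.18, of Slc30a1 from 0.26 to 0.33, of Mt3 from -0.10 to 0.03, of Mtf1 from -0.01 to 0.16 and of Slc39a14 from -0.26 to -0.13. Relative to the mean log2 of the astrocyte markers, the difference of Slc39a14 reversed to 0.14, that of Mt3 was 0.27 and that of Slc30a1 0.61. The sum of these markers, in which Slc1a2 weighs most, moved the other way and was not used as a scale. The count of all genes called, 31, was 68 with no filter, 3 with no variance trend and 0 with voom on recovered reads. Leaving out single libraries it ran from 1 to 623; the lowest was reached without day 28 replicate 1 and the highest when day 3 replicate 3 was dropped. It was 0 without day 3 replicates 1 and 2, an alternative added after the data were seen, which leaves 1 day 3 library that is assumed to vary like the day 28 libraries. The count of metal list genes called was 0 throughout except without day 3 replicate 3, where it was 1, Cp. With the replicate number as a block, 0 of all genes and 0 of the metal lists were called. The block rests on a shared number only: deviations of same-numbered libraries correlated at 0.03, 0.13 and -0.06, and not every library correlated best with its own number. The causes of these shifts were not tested. With 3 libraries a group, 4 residual degrees of freedom limit every test. Counting error was small beside the spread between libraries for Mt1 and Mt2. For Slc30a1 the largest counting error of a library was 0.066 on the log2 scale, against SDs of 0.083 at day 3 and 0.065 at day 28. For Mtf1 it was 0.069 (SDs 0.17 and 0.074) and for Slc39a14 0.076 (SDs 0.095 and 0.13).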
